A study of Rattus norvegicus with 60 samples.

Results

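The comparison described here is the change in gene expression in the amygdala of LR rats between postnatal day 14 (P14) and postnatal day 7 (P7). It uses 10 of the 60 arrays of the series, namely the 5 amygdala arrays labelled LR at P14 and the 5 labelled LR at P7. LR and HR are a pair of lines selectively bred from Sprague-Dawley rats, and the series title names them as a developing animal model with behaviour resembling anxiety and depression at a high or low level. Every sample came from a male rat, no treatment is named in the labels, and portions of the amygdala were dissected from frozen sections, guided by cresyl violet staining of neighbouring thinner ones. The other groups referred to are HR amygdala at P7 and P14, LR amygdala at P21 and LR prefrontal cortex at P7 and P14, each with 5 arrays of male rats. Total RNA was turned into cDNA and labelled with a NimbleGen one-color kit, and the deposited array values are RMA intensities on a linear scale. Each row of the table stands for a transcript, and differences are log2 of P14 over P7, so that a value of 1 is a doubling.

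In the rodent amygdala these days fall after neurons have settled and while axons and dendrites still grow, synapses form, oligodendrocytes begin to wrap axons and mitochondria take over more of the energy supply. Growing neurites are built from tubulin and actin, and immature neurons carry high levels of growth-associated proteins and of chaperones that fold these proteins. Myelin membrane proteins such as Mbp are made by oligodendrocytes once they mature. The amygdala is also rich in neuropeptides, among them Cck and Npy in local interneurons and other neurons, and Penk in its central nucleus.

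Within groups the arrays correlated with r between 0.953 and 0.956 at P7 and between 0.919 and 0.960 at P14. The median intensity per array was 69.1 to 70.5 at P7 and 61.4 to 70.8 at P14, where arrays 48 (61.4) and 47 (64.3) were the lowest. Array numbers in the column names place the P7 samples at 56 to 60 and the P14 samples at 46 to 50. If arrays are taken in runs of 12 consecutive numbers, P14 arrays 46, 47 and 48 belong to the run before and arrays 49 and 50 to the same run as the P7 samples. The sources used here do not say whether a run shared a slide or a day, so arrays 49 to 60 were also fitted alone, which sets 2 P14 against 5 P7 samples, and that fit is given where it lost a call or moved a count or value by over 1.5 times, and for the leading genes. The labelled tissue was checked against its markers. Of 13 measured genes of the basolateral and cortical amygdala 7 lay below the median row (64.4) at both ages, and of 14 of the central and medial amygdala 3 did. Among those above it were Cck, Lmo3 and Nr2f2 of the former and Penk, Sst, Nts and Prkcd of the latter, while Slc17a7, Neurod6 and Mef2c were below it. The tables hold no detection flag, so the size of a change is uncertain where a mean lies below 64.4. The labels' protocol gives 5 rats per phenotype, and the tables hold 5 samples per line, age and region. Codes in the column names share a prefix in 2 of the 5 LR P7 samples, and the sources used here do not say whether a prefix marks a litter. The p-values reflect sample-to-sample spread alone, which may be technical in part, and 5 arrays per group limit the precision.

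Of 17519 rows, 2896 (16.5%) differed between P14 and P7 at a limma adjusted p under 0.05, of which 1082 (6.18%) were higher at P14 and 1814 (10.4%) lower. The median difference over all rows was -0.03, over the rows that rose 0.78 and over those that fell -0.91. A rise of at least 1 on the log2 scale was seen in 285 called rows and a fall of that size in 733. At 2 or more the counts were 12 and 67, so the largest changes were mostly falls. The 5 values at P14 and the 5 at P7 did not overlap in 2006 rows (11.5%), of which 827 (4.72%) were higher and 1179 (6.73%) lower. With arrays centred on their medians or quantile normalized, 1349 and 1334 rows were higher and 1614 and 1544 lower, so that the share of higher rows was larger under both scalings. In arrays 49 to 60 alone, 1027 rows (5.86%) were called, 432 (2.47%) higher and 595 (3.4%) lower. Of the 2896 rows, 2875 kept their sign there and 931 were also called.

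Myelin genes were among the clearest rises. The Mobp intensities on the 5 arrays were 619, 617, 655, 585 and 651 at P7 and 3308, 3055, 3184, 2655 and 2933 at P14 (arrays 56 to 60 and 46 to 50, the order used throughout). Both groups were tight and did not overlap. Mobp, a structural protein of myelin, rose 4.83-fold (log2 difference ± SE, 2.27 ± 0.12, adjusted p = 1.13e-14, 5 arrays per age), and in arrays 49 to 60 the difference was 2.16 (adjusted p = 9.12e-06). A second Mobp row rose as well (adjusted p = 4.4e-06). Mbp, which compacts the myelin sheath, was dimmer, at 87.4, 144, 136, 182 and 76.1 at P7 and 337, 125, 265, 240.4 and 304 at P14. The P14 array 47 (125) fell among the P7 values, the other P14 arrays lay above them, and the change was 1.02 ± 0.24 (adjusted p = 0.00302); in arrays 49 to 60 it was 1.18 (adjusted p = 0.0744) and not called. Of 5 Mbp rows 2 rose and the others were not called.

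Of 25 measured genes of the myelin and oligodendrocyte list 7 rose and 1 fell, with a median difference of 0.18 against -0.03 over all rows. Besides Mobp and Mbp, genes that rose included Cryab (1.32), a small heat shock protein found in oligodendrocytes, Mag (0.92), an adhesion protein between myelin and axon, the oligodendrocyte transcription factor gene Nkx6-2 (0.81) and the tight junction gene Cldn11 (0.74). With arrays 49 to 60 alone 5 of these genes rose, and Nkx6-2 was not called (adjusted p = 0.154). Qdpr (-0.78), which regenerates tetrahydrobiopterin, fell. Of the 25 genes 11 lay below the median row at both ages. Mog, a surface protein of mature myelin, had means of 95.5 at P7 and 79.3 at P14 and was not called (adjusted p = 0.584). In the amygdala piece as a whole, more cells of a type and more RNA per cell cannot be told apart. The list of oligodendrocyte precursor genes, with 8 measured members, had 0 that rose and 1 that fell (Sox5, -0.58), which was not called in arrays 49 to 60 (-0.35, adjusted p = 0.501).

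**Figure D1:**
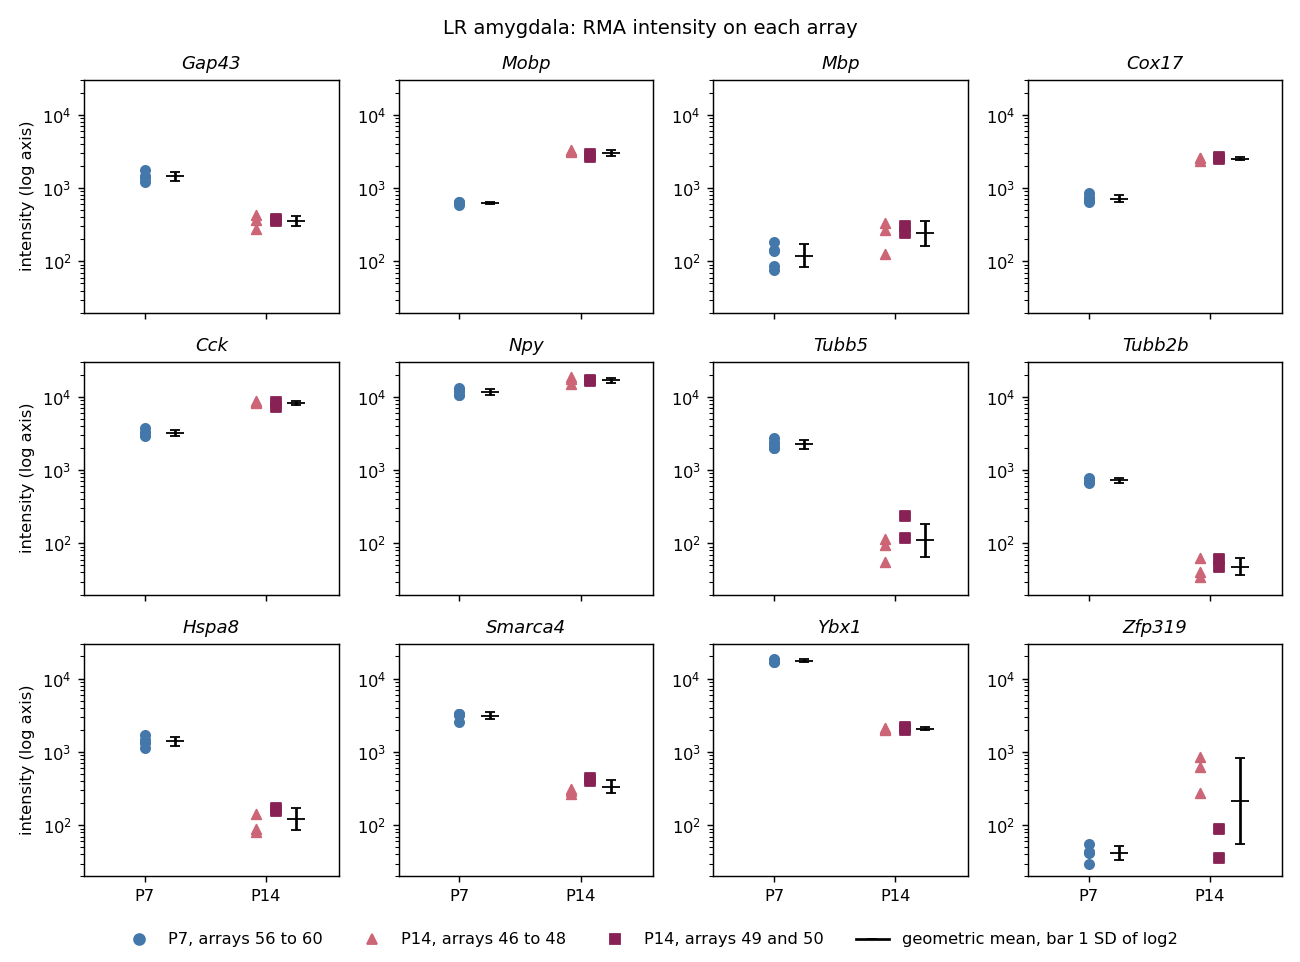
RMA intensity (log axis, the same in every panel) of 12 genes on each LR amygdala array, with P7 as circles, P14 arrays 46 to 48 as triangles and P14 arrays 49 and 50 as squares; the bar marks the geometric mean and 1 SD of the log2 values (n = 5 per age). Mobp rises from a highest P7 value of 655 to a lowest P14 value of 2655, Tubb5 falls from a lowest P7 value of 1963 to a highest P14 value of 234, and for Zfp319 the squares lie among or near the circles.

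The largest falls were in genes of the microtubule and actin cytoskeleton. Tubb5, a beta-tubulin, read 1965, 2387, 2196, 2768 and 1963 at P7 and 116, 95.2, 54.9, 234 and 117 at P14. All P14 values were below all P7 values, and the gene was 20.2-fold lower (-4.34 ± 0.24, adjusted p = 2.45e-14). Tubb2b, a beta-tubulin of migrating and growing neurons, went from 742, 739, 680.4, 663 and 776 to 39.96, 34.8, 63.6, 60.2 and 48.2. At P14 it was below the median row on every array, so its fall of -3.90 ± 0.20 (adjusted p = 4.48e-15) is a change down to the dim end of the table. Tubb3, the neuronal beta-tubulin used to mark young neurons, read 4444, 4871, 4524, 6201 and 5320.2 at P7 and 666, 627, 697, 632 and 602 at P14, again without overlap (-2.97 ± 0.19, adjusted p = 4.53e-13). Tubb2a (-3.38), the alpha-tubulin Tuba1a (-1.28), the cytoplasmic actin Actg1 (-3.37) and Actr2 (-2.75), a subunit of the complex that branches actin filaments, fell too. In arrays 49 to 60 the differences were -3.76 (adjusted p = 1.82e-06) for Tubb5, -3.74 (adjusted p = 1.82e-06) for Tubb2b and -3.03 (adjusted p = 2.75e-06) for Tubb3.

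Among all 17 measured tubulin genes, a family counted by symbol after its values had been seen, 12 fell and 1 (Tubg1, 0.46) rose, and in arrays 49 to 60 alone 11 fell and 0 rose. The 4 that were not called were Tuba8, Tubg2, Tuba3b and Tubb1. Tubulin and actin genes have near-identical relatives and pseudogenes, and which of them a probe set reads cannot be told apart here.

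Genes of neurite outgrowth fell with the tubulins. Of 21 measured genes of the immature neuron and outgrowth list, which holds 4 of these tubulins, 12 fell and 1 rose, with a median of -0.89. Stmn1, a microtubule-destabilising protein of growing neurites, read 5594, 6503, 5463, 6212 and 6319 at P7 and 1877, 1733, 1610.0, 1799 and 1690.5 at P14. The groups did not overlap, and the gene was 3.45-fold lower (-1.79 ± 0.15, adjusted p = 1.3e-10). Gap43, a growth cone protein, read 1386, 1405, 1478, 1774 and 1217 at P7 and 422, 278, 369.8, 379.6 and 360.2 at P14, which was 4.02-fold lower (-2.01 ± 0.17, adjusted p = 1.7e-10). Stmn4 fell by 2.61 in both of its rows, and the transcription factor gene Sox4, which is active in newborn neurons, fell by 1.28 in the brighter of its 2 rows, the other not being called. Stmn2, a relative of Stmn1, was at 12883, 13468, 12627, 13264 and 13574 at P7 and 12333, 11202, 13322, 11347 and 11186 at P14. These values overlapped and the difference of -0.15 ± 0.12 (adjusted p = 0.435) did not pass the test, so the list did not move as 1 block. The 1 member that rose, Marcksl1, read 1333, 534, 596, 286 and 209 on P14 arrays 46 to 50 against 249.9, 234, 227, 165 and 258 at P7. It was high on arrays 46 to 48 alone, and in arrays 49 to 60 its difference was 0.13 (adjusted p = 0.918). With that run alone, 9 members of the list fell and 0 rose. The summed intensity of the list was 68389 to 74714 at P7 and 35128 to 38838 at P14.

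Progenitor and cell cycle genes showed fewer calls. Of 13 measured progenitor and radial glia genes 3 fell, Vim (-1.77), Sox2 (-1.05) and Fabp7 (-0.89), and Pax6 (0.78) rose. Pax6 was high on arrays 46 to 48 and differed by 0.14 (adjusted p = 0.843) in arrays 49 to 60. Vim encodes the intermediate filament of radial glia and young astrocytes, and Fabp7 a fatty acid binding protein of the same cells. Of 18 cell cycle genes 3 fell (Mcm6, Cdkn1c and Ube2c) and 0 rose, beside 10.4% of all rows that fell. Of these 3 genes Mcm6 alone was called in arrays 49 to 60. Mki67 was dim at both ages, with means of 50.2 and 45.95.

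Chaperone genes fell as well. Hspa8, the constitutive Hsc70 chaperone, read 1142, 1385, 1439, 1714 and 1308 at P7 and 140.1, 88.2, 81.8, 156 and 169 at P14. All P14 arrays were below all P7 arrays, and the gene was 11.4-fold lower (-3.51 ± 0.22, adjusted p = 3.69e-13). Dnaja1, an Hsp40 partner of Hspa8, read 2586, 2875, 2425, 2155 and 2475 at P7 and 514, 735, 504, 642 and 708 at P14, a change of -2.023 ± 0.24 (adjusted p = 1.56e-07). Hspa5, the chaperone of the endoplasmic reticulum (-2.019), the cytosolic Hsp90 gene Hsp90ab1 (-1.12) and the Hsp90 activator gene Ahsa1 (-2.25) also fell. Of 23 measured genes of the heat shock and unfolded protein list 10 fell and 1 rose, with a median of -0.48. In arrays 49 to 60 alone 6 fell and 1 rose, with a median of -0.18. Hspa8, like the tubulins, has many near-identical pseudogenes.

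The mitochondrial chaperonin pair did not move together. Hspe1, the small subunit of the mitochondrial chaperonin, read 3919, 3663, 4215, 3401 and 3719.6 at P7 and 8137, 8587, 7460.3, 6282 and 6721 at P14. It was higher on every P14 array, a rise of 0.97 ± 0.12 (adjusted p = 6.02e-07). Hspd1, the large subunit, read 76.8, 138, 76.01, 112 and 55.6 at P7 and 55.4, 58.8, 48.4, 36.4 and 56.7 at P14. Its values were near or below the median row, the ages overlapped, and the fall of -0.79 ± 0.28 (adjusted p = 0.0478) was not called in arrays 49 to 60 (-0.94, adjusted p = 0.175). These genes are transcribed away from each other from a shared promoter, with annotated starts 289 bases apart, and their 250-base upstream windows share 211 bases.

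Heat shock factor binds elements built from inverted repeats of a GAA unit. The motif searched, GAANNTTC, is a pair of such units and reads the same on both strands. It was looked for in the 250 bases before the annotated start, in RefSeq promoters of the rat build GRCr8. It was found in 7 of the 18 list members that had a window and in 7.23% of all 33469 windows. Among the members it was present in 3 of 8 that fell, in 1 of 1 that rose and in 3 of 9 that were not called. Windows of Hspa8 and Dnaja1, which fell, and of Hspe1, which rose, are shown to let the element be seen on both sides, with its matches in capitals. The Hspe1 match lies in the stretch that it shares with Hspd1. The windows are chr8:50080264-50080513 (plus strand) for Hspa8, chr5:60638154-60638403 (plus strand) for Dnaja1 and chr9:64084077-64084326 (plus strand) for Hspe1.
Hspa8: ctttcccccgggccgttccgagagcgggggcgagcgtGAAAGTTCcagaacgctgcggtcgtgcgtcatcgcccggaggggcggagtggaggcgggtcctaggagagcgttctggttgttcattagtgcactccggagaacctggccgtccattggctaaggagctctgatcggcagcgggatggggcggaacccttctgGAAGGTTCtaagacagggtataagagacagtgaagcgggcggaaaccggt
Dnaja1: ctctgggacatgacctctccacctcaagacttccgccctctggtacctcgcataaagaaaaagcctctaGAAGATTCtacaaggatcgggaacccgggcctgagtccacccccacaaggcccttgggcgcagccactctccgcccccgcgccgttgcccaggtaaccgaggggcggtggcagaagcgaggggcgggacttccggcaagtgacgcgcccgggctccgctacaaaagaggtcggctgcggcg
Hspe1: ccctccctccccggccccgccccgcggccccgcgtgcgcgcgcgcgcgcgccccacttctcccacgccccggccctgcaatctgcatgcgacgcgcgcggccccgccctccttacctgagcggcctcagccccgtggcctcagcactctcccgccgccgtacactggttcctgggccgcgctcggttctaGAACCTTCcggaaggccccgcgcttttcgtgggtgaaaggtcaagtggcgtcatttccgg
The Hspa8 window held 2 matches and the others 1 each. A match is only a run of letters, and binding was not measured.

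Nuclear genes of the respiratory chain gave the most rises of any list. Of 58 measured genes of oxidative phosphorylation 38 rose and 7 fell, with a median of 0.55 against -0.03 over all rows. Arrays 49 to 60 alone gave 24 that rose and 4 that fell, with a median of 0.58. Summed over the list, intensity was 266491 to 279393 at P7 and 404524 to 427165 at P14, without overlap. Uqcrb, a small subunit of complex III, read 2716, 2173, 2574, 2377 and 2676 at P7 and 6338, 5998, 6905, 5159 and 5444 at P14, a rise of 1.25 ± 0.12 (adjusted p = 2.5e-09). Cox7b, a small subunit of cytochrome oxidase, read 4702, 4975, 5658, 5392 and 4647 at P7 and 11010.1, 10709, 11034, 11019 and 11773 at P14 (1.13 ± 0.12, adjusted p = 2.88e-08). For both genes every P14 array was above every P7 array. Cox17, the copper chaperone that serves cytochrome oxidase assembly and is not a member of the list, rose 3.51-fold, from 639.6, 691, 849, 683 and 746 at P7 to 2310.4, 2573, 2589, 2509.5 and 2651 at P14 (1.81 ± 0.12, adjusted p = 1.51e-12).

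By complex, 19 of 25 measured complex I genes rose and 3 fell. Of complex III genes 4 of 8 rose and 0 fell, and of complex IV genes 8 of 9 rose and 0 fell. In arrays 49 to 60 alone 12 complex I genes rose and 1 fell, while 4 complex III and 4 complex IV genes rose. Ndufa5 (1.28) and Ndufa8 (1.28) had the largest rises of complex I. The ATP synthase split. Of 5 genes of its catalytic F1 part 3 fell and 1 rose, and of 10 genes of its other subunits 6 rose and 1 fell. In arrays 49 to 60 alone 2 fell and 1 rose in the F1 part, and 3 rose and 1 fell among the others. Atp5f1b, the catalytic beta subunit, read 2333, 2554, 2318, 2409 and 2778 at P7 and 616, 455, 678, 537 and 550.2 at P14, without overlap (-2.14 ± 0.15, adjusted p = 2.31e-12). Atp5f1a, the alpha subunit, fell by 1.75, and Atp5pb, a subunit of the stalk, fell by 1.01. Atp5mg, a small membrane subunit, rose in the same samples from 2140.5, 2448, 2607, 2341 and 2794 at P7 to 5776, 5977, 5829, 5473 and 5649.6 at P14 (1.22 ± 0.11, adjusted p = 1.16e-09). In arrays 49 to 60 the differences were -2.19 (adjusted p = 1.86e-05) for Atp5f1b and 1.18 (adjusted p = 0.00127) for Atp5mg, so both directions were also called within that run. Among the genes that fell in complex I were the core subunit gene Ndufv2 and the accessory subunit gene Ndufa9, neither of which was called in arrays 49 to 60 (adjusted p = 0.214 and 0.365). The genomic span from first to last base of the annotated gene had a median of 7.13 kb in the 38 genes of the list that rose, 17.05 kb in the 7 that fell and 5.25 kb in the 13 not called. Among all genes at or above the median row a span was found for only 76.1 to 80.7% of each class, too few for a check. Where found, its median was 6.70 kb in those that rose, 14.05 kb in those that fell and 12.76 kb in those not called. The part of the span in the result was not tested.

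The promoter motif TTCCGG, the core bound by ETS factors on either strand, was found in the upstream window of 21 of 50 oxidative phosphorylation genes (42%) and in 12.6% of all windows. It was present in 15 of 33 genes that rose, in 1 of 6 that fell and in 5 of 11 that were not called. Ribosomal protein genes, which had as many calls in each direction, held it in 21 of 51 windows (41.2%). Atp5mg had the largest rise among the members with the motif, and its window, chr8:54130408-54130657 on the minus strand of GRCr8, is shown with the motif in capitals.
Atp5mg: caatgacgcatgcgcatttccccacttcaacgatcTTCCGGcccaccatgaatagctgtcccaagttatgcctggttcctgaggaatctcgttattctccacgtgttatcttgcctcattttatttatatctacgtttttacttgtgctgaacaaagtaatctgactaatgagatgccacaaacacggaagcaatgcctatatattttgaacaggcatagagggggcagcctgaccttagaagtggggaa
The other motifs searched were the heat shock element extended by any 2 bases and then GAA, which contains the shorter form, in 4 of 18 chaperone list windows (0.663% of all), ACTTCCG, which overlaps TTCCGG, in 12 of 50 oxidative phosphorylation windows (5.22% of all), and GCGCATG in 10 of 50 (3.26% of all). ACTTCCG was present in 7 of 33 oxidative phosphorylation genes that rose, in 2 of 6 that fell and in 3 of 11 that were not called. For GCGCATG these counts were 6 of 33, 0 of 6 and 4 of 11. The motifs thus differed in how they were split between the calls, and no test was run. All 5 motifs were searched on both strands.

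Glycolytic and tricarboxylic acid cycle enzymes went the other way. Of 41 measured genes 16 fell and 0 rose, with a median of -0.47. Gapdh, a glycolytic enzyme often used as a reference gene, read 7787, 8446, 9920.4, 10358 and 8466 at P7 and 3980.1, 3492, 3807, 3488 and 3395 at P14. The values did not overlap, and the gene was 2.47-fold lower (-1.30 ± 0.14, adjusted p = 2.74e-08). Ldha, the lactate dehydrogenase subunit typical of glycolytic tissue, was uneven at P7, at 316, 695, 405, 279.7 and 646, and lower on every array at P14, at 123, 139.8, 95.4, 132 and 139 (-1.81 ± 0.22, adjusted p = 1.7e-07). Suclg1 (-1.48) and Idh2 (-1.20) of the tricarboxylic acid cycle fell, and Ldhb, the subunit typical of oxidative tissue, had means of 4843 and 4729 and was not called. Within arrays 49 to 60 alone 6 members fell and 1 rose, and Idh2 was not called (-0.53, adjusted p = 0.321). Gapdh has many pseudogenes that a probe set may read. Of 18 genes of ketone body and fatty acid use 5 fell, among them Acat1 (-0.66) and Fabp5 (-0.58), and 2 rose, Fabp3 (0.60) and Cpt1c (0.54). Within arrays 49 to 60 alone 2 fell and 0 rose, and Fabp5, Fabp3 and Cpt1c were not called. Of 24 genes of cholesterol and lipid synthesis 4 fell and 0 rose, beside 10.4% of all rows that fell. The falls were led by Fdft1 (-1.60), the squalene synthase gene, and Mvd (-1.11), an enzyme of the mevalonate pathway. In arrays 49 to 60 alone these 2 fell.

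Neuropeptide genes moved in both directions. Cck, the precursor of cholecystokinin, read 2900.4, 3023, 3311, 3679.8 and 3091 at P7 and 8569.6, 8129, 8746, 7213 and 8385 at P14. Each P14 array was well above each P7 array, and the gene rose 2.57-fold (1.36 ± 0.12, adjusted p = 6.09e-10). Cartpt, the precursor of the CART peptides, read 440.2, 396, 461, 408 and 623 at P7 and 1325, 1165, 1295, 1091 and 1045 at P14, also without overlap (1.36 ± 0.15, adjusted p = 4.77e-08). Npy, the neuropeptide Y precursor of a class of interneurons, was bright at both ages, at 11964, 12992, 10556, 10663 and 12152 and then 18443, 17503, 15028, 16681 and 16140.2, a smaller rise of 0.52 ± 0.11 (adjusted p = 0.000715). Cort (1.21), the somatostatin-related cortistatin, Gal (0.41), the galanin precursor, and the neurotensin receptor gene Ntsr2 (0.72) rose too. Within arrays 49 to 60 Cck and Cartpt were called, whereas Npy (0.50, adjusted p = 0.134), Cort (0.94, adjusted p = 0.242), Gal (0.33, adjusted p = 0.434) and Ntsr2 (0.82, adjusted p = 0.208) were not.

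Penk, the enkephalin precursor of the central nucleus and striatum, read 6486, 7982, 6353, 7458 and 7936 at P7 and 4479.8, 3009, 3938, 3458 and 2636 at P14, a fall of -1.07 ± 0.15 (adjusted p = 2.72e-06). Pmch, the precursor of melanin-concentrating hormone and a marker of lateral hypothalamic neurons, read 1777, 1529, 1161, 1534 and 1517 at P7 and 406, 335, 426, 438 and 425 at P14, a fall of -1.88 ± 0.21 (adjusted p = 3.37e-08). Tac1 (-0.73), the substance P precursor, fell in the 10 samples but was not called in arrays 49 to 60 (-0.40, adjusted p = 0.311). In all, 6 of 27 measured genes of the neuropeptide list rose and 3 fell (2 and 2 in arrays 49 to 60 alone), and Sst, at means of 4874 and 4217, was not called. Tac3, the neurokinin B precursor and a member of no list, read 47.99, 91.2, 67.8, 75.3 and 89.2 at P7 and 247, 167, 442, 240.5 and 219 at P14 (1.78 ± 0.23, adjusted p = 6.3e-07). The P7 values were close to the median row, and every P14 value was above them.

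Calls of receptor and synapse genes are given beside 6.18% of all rows that rose and 10.4% that fell. Many of these genes were dim. Of 21 measured glutamate receptor and synapse genes 10 lay below the median row at both ages, 2 fell and 0 rose. Camk2b, a subunit of calcium/calmodulin-dependent kinase II, fell by 2.06 in its brightest row, from 5181, 5359.7, 5523, 6372 and 4912 to 1298, 1278, 1543, 1326 and 1126. A second Camk2b row fell by 0.57 and the third was not called. Of 22 synaptic vesicle genes 1 fell and 0 rose, of 12 GABA genes 1 rose and 1 fell, and all 16 monoamine and acetylcholine receptor genes missed the threshold (smallest adjusted p = 0.0521, Htr7). Of 20 genes of the voltage-gated channel list 2 rose, Kcna1 and the inward rectifier gene Kcnj4. The latter was dim at P7, with a mean of 34.5. Kcna1, an axonal potassium channel, read 307, 403, 499, 249 and 459 at P7 and 986, 1215, 925, 1055 and 1030.0 at P14, without overlap (1.48 ± 0.17, adjusted p = 4.9e-08). Pvalb, the calcium buffer of fast-spiking interneurons, was dim at P7, at 27.97, 45.2, 74.9, 36.8 and 61.6, and read 93.4, 73.8, 149, 128 and 111 at P14 (1.22 ± 0.24, adjusted p = 0.000415). The ages overlapped by array 47. Crhbp (0.69), the binding protein of corticotropin-releasing hormone, was the 1 called gene of 12 in the glucocorticoid and stress list. Crym (1.22), a thyroid hormone binding protein, and Igf1 (0.75) rose in the list of thyroid hormone and growth factor signalling, the latter in 2 of its 3 rows, although its brightest row was not called in arrays 49 to 60, while the growth factor gene Fgf9 fell (-0.82). Few genes of the remaining lists were called. They were the interneuron channel gene Kcnc2 (0.65, of 13 perineuronal net and fast-spiking genes, beside Pvalb), the guidance genes Slit3 (0.60) and Robo1 (-0.92, of 27), the activity-regulated Egr3 (0.65, of 17) and the clock output gene Dbp (0.65, of 10). Kcnc2 was below the median row at both ages, with means of 40.1 and 62.9, and its values overlapped. All 7 hippocampal markers missed the threshold (smallest adjusted p = 0.0611, Fibcd1). In arrays 49 to 60 alone Crhbp (0.60, adjusted p = 0.167), Fgf9 (-0.73, adjusted p = 0.223), Kcnc2 (0.74, adjusted p = 0.145), Slit3 (0.63, adjusted p = 0.217), Robo1 (-0.43, adjusted p = 0.7) and Egr3 (0.55, adjusted p = 0.186) lost their calls. There 1 of the glutamate receptor and synapse genes fell, as did 0 of the synaptic vesicle genes, and 1 of the monoamine and acetylcholine receptor genes rose. Of the GABA genes 0 rose and 1 fell there. Gabrd, the GABA gene that rose over the 10 samples, had means of 37.9 and 55.2, below the median row. It was not called in arrays 49 to 60 (0.69, adjusted p = 0.116).

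Markers of other cell types were called in both directions. Of 16 measured microglia and complement genes 4 rose and 0 fell. Aif1, a microglial marker, read 89.9, 155, 166, 137 and 195 at P7 and 451, 269, 411, 406 and 474 at P14 (1.46 ± 0.18, adjusted p = 2.57e-07). C1qa (1.35), C1qb (0.79) and Ctss (0.70) rose as well, of which Ctss and C1qb were not called in arrays 49 to 60. The microglial genes Cx3cr1, P2ry12, Csf1r and Tmem119 had means of 39.5 to 79.7 over both ages and were not called. Of 24 astrocyte genes 6 fell and 2 rose. Sparc (-1.18) and Sparcl1 (-1.33), matrix proteins of glia, and Aldoc (-0.84) fell, while the calcium binding protein gene S100b (1.003) and Cst3 (0.60), a secreted protease inhibitor, rose. Cst3 was higher on arrays 46 to 48 (16078 to 18836) than on arrays 49 and 50 (11356 and 11726), and its difference in arrays 49 to 60 was 0.25 (adjusted p = 0.543).

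Genes of the vessel and meningeal lists that were called fell, as did 10.4% of all rows. Of 13 endothelial and mural genes 2 fell (1 in arrays 49 to 60 alone), among them the tight junction gene Cldn5, from 766, 749.6, 653, 826 and 953 at P7 to 519.7, 229, 142, 343 and 320.3 at P14 (-1.46 ± 0.24, adjusted p = 3.75e-05). Of 19 genes of meninges, fibroblasts and matrix 6 fell and 0 rose (2 fell in arrays 49 to 60 alone), and the summed level was 3771 to 4710 at P7 and 2180 to 3063 at P14. The fibrillar collagen gene Col1a2 read 905, 1115, 1053, 1140.4 and 968 at P7 and 364, 222, 393, 283 and 273 at P14 (-1.78 ± 0.19, adjusted p = 2.45e-08). Dcn, Ogn and Fn1, defining genes of the same cells, had means of 44.1 to 47.8 over both ages, at the dim end of the table. Summed levels of the choroid plexus list (49929 to 62950 at P7, 48990 to 54671 at P14) and of the blood cell list (58400 to 65764, then 58869 to 72638) overlapped between the ages. In the former Folr1 (-1.67) and Rsph1 (-1.46) fell and Rarres2 rose, of which Rsph1 was not called in arrays 49 to 60 (-0.82, adjusted p = 0.32), and in the latter Ahsp (1.10), the chaperone of alpha-haemoglobin, was the 1 of 11 genes that was called. The summed level of the thalamus and hypothalamus list was 2703 to 3162 at P7 and 1396 to 1806 at P14. Pmch alone went from a mean of 1504 to 406, and the median difference of the list was -0.05. In it 3 of 14 genes were lower, Pmch, Prkcd and Calb2. Prkcd, also a member of the central and medial amygdala list, was not called in arrays 49 to 60 (-0.56, adjusted p = 0.292). The summed level of the striatum list overlapped between the ages (1009 to 1423, then 1001 to 1255). The part of these cells and of the borders of the dissected piece in the other results was not tested.

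Among chromatin genes the calls were falls. Of 24 measured genes 8 fell and 0 rose, with a median of -0.16, while with quantile normalization 6 fell and 2 rose and in arrays 49 to 60 alone 5 fell and 0 rose. Smarca4, the ATPase of SWI/SNF remodelling complexes, read 3295, 2546, 3282, 3168 and 3252 at P7 and 296, 311, 269.6, 394 and 439 at P14, which was 9.20-fold lower (-3.20 ± 0.19, adjusted p = 1.71e-13). Dnmt1, the maintenance DNA methyltransferase, read 507, 617, 428, 742 and 657 at P7 and 209, 219, 153, 241 and 252 at P14 (-1.45 ± 0.19, adjusted p = 1.04e-06). The histone deacetylase genes Hdac5 (-1.19) and Hdac2 (-1.41) fell. Ybx1, an RNA and DNA binding protein of growing cells, read 16584, 17286, 18386, 16723 and 18006 at P7 and 2053, 1960.3, 2084, 2008 and 2214 at P14 (-3.08 ± 0.14, adjusted p = 1.52e-15). The groups were tight and far apart, and a second Ybx1 row fell by 2.94. Eef2, the translation elongation factor, fell by 2.65 and was 6.28-fold lower. Ribosomal protein genes split evenly, with 10 of 65 higher and 10 lower and a median of 0.03 (7 and 12 with quantile normalization). Rpsa (-1.30) and Rpl3 (-1.11) fell, and Rpl27 (0.79) and Rps24 (0.61) rose. Within arrays 49 to 60 no more than 6 of the 65 were called, all lower.

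**Figure D2:**
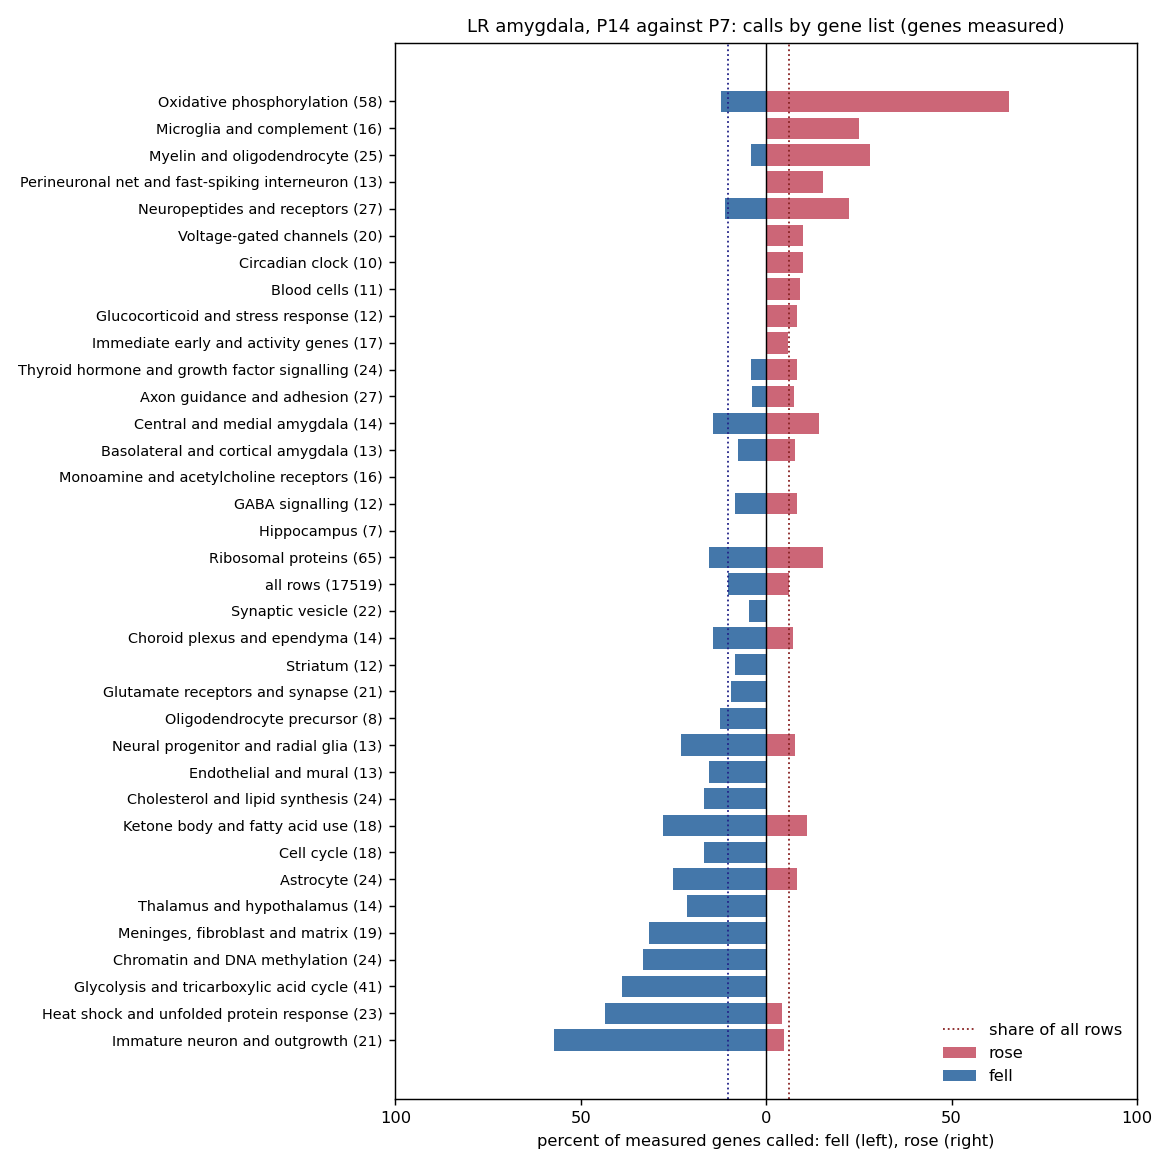
Percent of the measured genes of each list (number measured in brackets) that fell (left) or rose (right) from P7 to P14 in LR amygdala, with dotted lines at the shares of all rows (6.18% rose, 10.4% fell). Oxidative phosphorylation has the longest bar to the right (38 of 58) and immature neuron and outgrowth the longest to the left (12 of 21).

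Several of the largest rises differed between the runs of arrays. Zfp319, a zinc finger gene, read 54.5, 29.1, 42.9, 42.1 and 43.02 at P7 and 628, 859, 273, 35.1 and 88.6 on P14 arrays 46 to 50. Arrays 46, 47 and 48 were high and array 49 lay among the P7 values. Over the 10 samples the difference was 2.37 ± 0.54 (adjusted p = 0.00195), but the difference in arrays 49 to 60 was 0.43 (adjusted p = 0.597) and a second row was not called (0.13, adjusted p = 0.782). Fnip2, which binds folliculin, read 2644, 5066, 3003, 449 and 642 at P14 against 434, 461, 839.5, 298 and 325 at P7, and Sympk, a scaffold of RNA 3′ end processing, read 596, 739, 459, 141 and 97.7 against 134, 82.5, 46.2, 56.4 and 108. For both, arrays 46 to 48 were high and arrays 49 and 50 overlapped or neighboured P7, with differences of 0.29 (adjusted p = 0.719) and 0.57 (adjusted p = 0.479) in arrays 49 to 60. Among the 1018 called rows with a difference of at least 1, the mean change on arrays 49 and 50 was less than 0.5 times that on arrays 46 to 48 in 183, of which 62 rose and 121 fell. In HR, whose P14 arrays all belong to the run of arrays 46 to 48, Zfp319 was at 586 to 1421 at P14 and 41.7 to 85.2 at P7, and Fnip2 at 2906 to 6331 and 382 to 543. At P21, where 4 of the 5 LR arrays belong to that run, Zfp319 was at 73.5 to 393 in LR (median 334). Fnip2 was at 121 to 1965.5 there (median 1655) and Sympk at 62.8 to 177 (median 156). The part of the array run in these changes was not tested beyond these values.

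The other large rises were also called within arrays 49 to 60. Plaat3, a phospholipase and acyltransferase, read 338, 331, 304, 446 and 387 at P7 and 1749, 1519, 1492, 1207 and 1345 at P14 (4.06-fold higher, adjusted p = 5.78e-10). Ccn3, a matricellular growth regulator (1.96), Mcee, an enzyme of propionate breakdown (1.90), Rarres2, the chemerin precursor (1.82), Synj2bp, a protein of the outer mitochondrial membrane (1.76), and Tnnc2, a troponin C of fast muscle (1.85), were among them. Tnnc2 was lowest on P14 array 47 (149), below the highest P7 array (170.3). Agap1, a regulator of Arf GTPases, rose by 2.88 and was called there too, but a second Agap1 row had means of 75.7 and 72.4 and was not called.

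**Figure D3:**
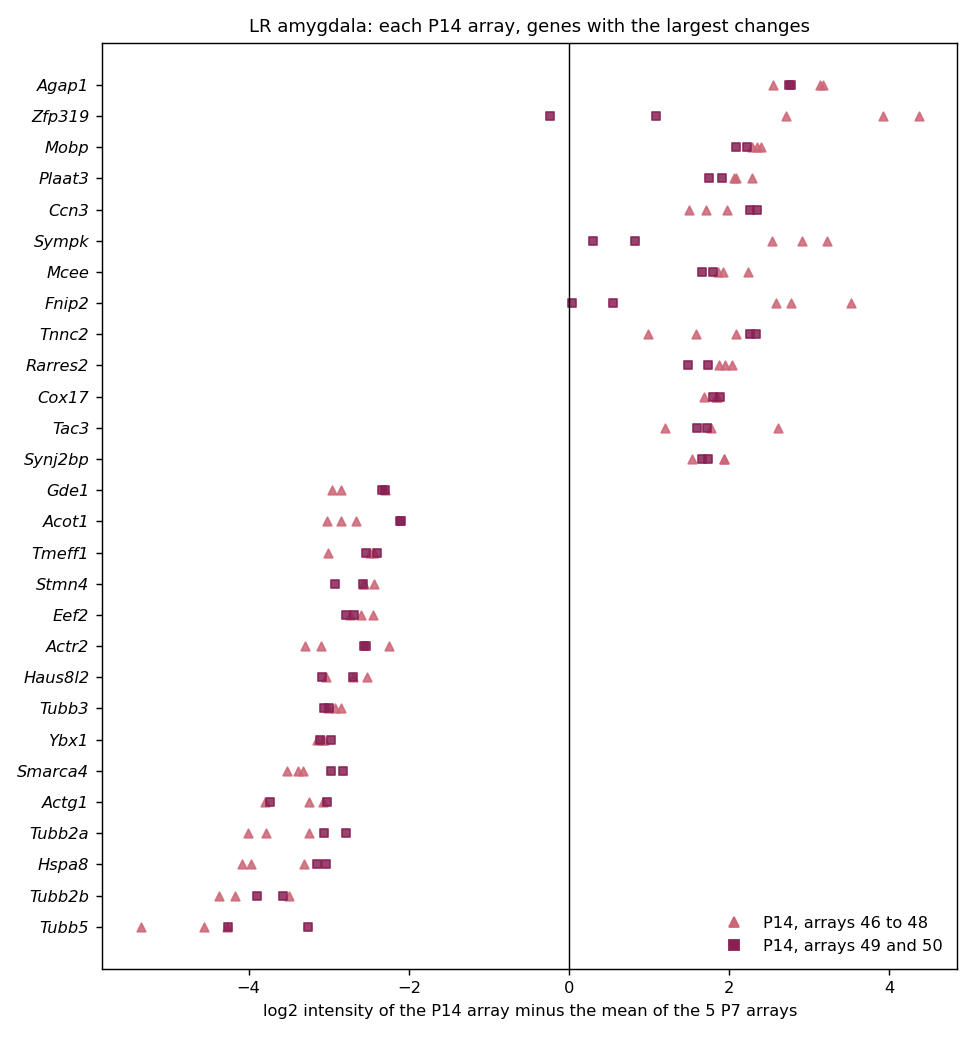
Log2 intensity of each P14 array minus the mean of the 5 P7 arrays (x axis) for genes named for the largest changes (y axis), with triangles for arrays 46 to 48 and squares for arrays 49 and 50. For Zfp319, Sympk and Fnip2 the squares lie closer to 0 than the triangles, and all squares of the genes that fell lie below -2.

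At P21 the LR amygdala arrays lay on different sides of the P14 values. Mobp went on to 6306 to 8080, above all P14 arrays. Tubb2b (39.5 to 59.8) and Ybx1 (1888 to 2288) overlapped their P14 range, and Tubb3 (375 to 484) lay below it. Cpe, a peptide-processing carboxypeptidase, fell from 1288, 1935, 1682, 1528 and 1413 at P7 to 364, 292, 168, 337 and 486 at P14 and was at 1088 to 1389 at P21, above every P14 array. Its second row was not called. Vdac3, a mitochondrial channel, fell from 2659, 2559.9, 2185, 2293 and 2584 to 488, 432, 540.0, 444 and 391 and was at 1791 to 2061 at P21. By means, 792 of the 1814 rows that fell (43.7%) were at least halfway back to P7 at P21, as were 212 of the 1082 that rose (19.6%). The P14 arrays that chose these rows enter that count, so it is a description only.

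The HR line was used to ask whether the change differed between the lines. The step in LR minus the step in HR passed the test in 452 rows (2.58%), 109 higher (0.622%) and 343 lower (1.96%) in LR. With quantile normalization these were 187 and 299, and with centred arrays 172 and 293, so the share of higher rows depends on the scaling. Among the 343 lower rows, 233 fell in LR, of which 56 also fell in HR, 158 were not called in HR and 19 rose in HR. In HR alone 3078 rows (17.6%) were called between the ages, 1628 higher (9.29%) and 1450 lower (8.28%), and 1252 rows were called in the same direction in both lines, which is 43.2% of the LR and 40.7% of the HR calls. The HR P14 arrays are numbers 41 to 45 and the HR P7 arrays 51 to 55, so in HR the age and the array run cannot be told apart.

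Tubb2b, Hspa8, Cpe, Haus8l2, Ahsa1 and Vdac3 had the smallest p-values for the difference between the steps. Tubb2b was at 60.4 to 114 in HR at P7 and 25.7 to 45.1 at P14, against 663 to 776 and 34.8 to 63.6 in LR. The LR and HR steps were -3.90 and -1.30, with a difference of -2.60 ± 0.28, adjusted p = 6.18e-07. Hspa8 was at 95.7 to 247 in HR at P7, below every LR P7 array, and at 82.6 to 99.0 at P14, with a difference between steps of -2.60 ± 0.31, adjusted p = 2.25e-06. For Cpe the HR values were 210 to 326 at P7 and 285 to 453 at P14, so the LR step of -2.32 stood against 0.38 in HR (-2.70 ± 0.29, adjusted p = 5.07e-07). In each of these 3 genes every LR P7 array was above every HR P7 array, while the P14 ranges of the lines overlapped.

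Other changes were close in size in both lines. The steps of Mobp were 2.27 in LR and 2.50 in HR (difference -0.23 ± 0.17, adjusted p = 0.557), those of Cox17 1.81 and 1.86 and those of Ybx1 -3.08 and -2.78. A difference that misses the threshold does not show that the lines changed alike. In HR 38 of the 58 oxidative phosphorylation genes rose and 3 fell (median 0.46), against 38 and 7 in LR (median 0.55), and the steps themselves differed for 6 of them, 2 higher and 4 lower in LR. The genes plotted for both lines were chosen for the size of their change in LR, which by itself makes the HR step look smaller, so their number is not evidence of a line difference.

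**Figure D4:**
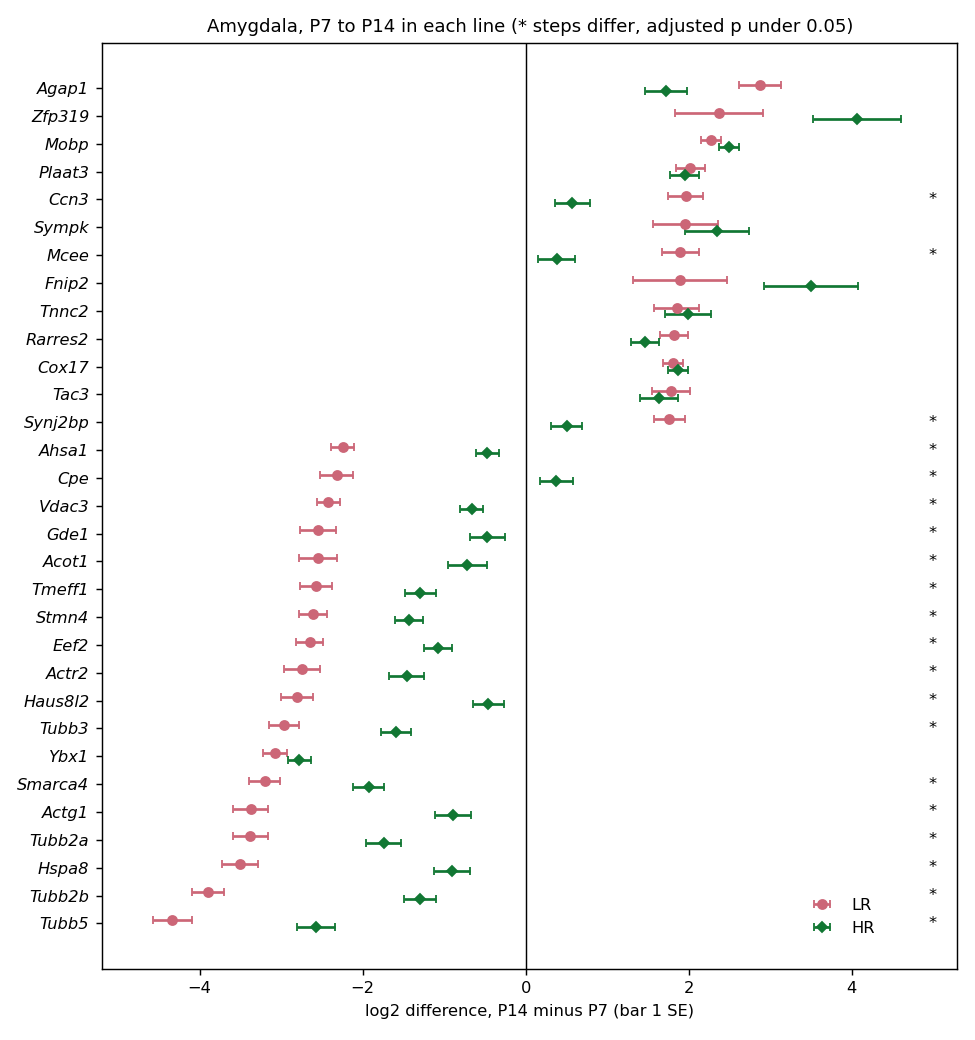
Log2 difference between P14 and P7 (x axis, bars 1 SE) in LR (circles) and HR (diamonds) amygdala for the genes named by the size of the LR change or by the smallest p of the line difference (y axis). Stars mark genes whose steps differed at an adjusted p under 0.05; Mobp, Cox17 and Ybx1 carry none.

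In LR prefrontal cortex, normalized separately, 223 of 18564 rows (1.2%) were called between the same ages, 109 higher (0.587%) and 114 lower (0.614%). This count depends on single arrays and lay between 41 and 308 when each was left out in turn, the lowest without array 18 and the highest without array 19. Of 2807 amygdala-called rows with a prefrontal value, 98 (3.49%) were called there in the same direction, which is 44.5% of the 220 prefrontal-called rows with an amygdala value, and 10 were called in the opposite direction. Among the 37 that rose in both were Cck, Cartpt, Cort, Mbp, Cox17 and Tnnc2, and among the 61 that fell in both were Ybx1, Stmn1, Sox4, Vim, Fabp7 and Qdpr. Ybx1 differed by -4.69 (adjusted p = 0.00532) and Stmn1 by -2.67 (adjusted p = 0.0131) in prefrontal cortex, and Cck by 1.39 (adjusted p = 0.00332). Tubb2b (-1.38, adjusted p = 0.285) was not called there. In that region P14 arrays are numbers 16 to 20 and P7 arrays 26 to 30, so age and array run cannot be told apart, and no test was run between the regions. The column codes of all 10 LR samples of these ages are the same in both regions, so the samples may come from the same rats, and the shared calls are then not from separate animals.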

How the data were processed

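Gene expression was measured on 1-colour arrays, 5 per line, age and region. The deposited values are intensities normalized by RMA, per the submitters' processing notes (version not stated), on a linear scale, and the amygdala and prefrontal tables were normalized separately. Probe-level files were not used here. RMA summarises the probes of a row into 1 value per array, and dim values are compressed. Columns were tied to groups by line, region and age in the column names.

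Values were log2 transformed with no added constant. After 1046 blank lines were removed, 17519 amygdala rows were fitted with limma 3.58.1 in R 4.3.3, with a mean for each of 6 groups over 30 arrays, and p-values were adjusted by the Benjamini-Hochberg method over all rows at 0.05. The code was tested on simulated data. Rows were named by gene identifier or accession (13441 rows), by the file's symbol (3267) or not at all (811). A gene with several rows is given by its brightest row in list counts.

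Genes are named by rule: the 15 largest called changes in each direction, up to 4 called members of each list with the smallest p, the 6 smallest p for the line difference, and genes with a textbook role. Some genes that the rule selects are not reported here. The members and lists were chosen with earlier results of these data known. Alternatives were other scalings, fits, filters, an added 16 and left-out arrays.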

Additional observations from a re-analysis of the deposited data

Results flagged for a closer look

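The change between P7 and P14 differed between the lines, by the test of the difference itself, for 35 of the 129 rows named by rule, some of which are given here alone. The step in LR was larger than in HR for Ccn3 (difference 1.39), Mcee (1.52), Synj2bp (1.26) and Ndufa8 (0.86). It was lower in LR for the cytoskeletal genes Tubb5 (-1.77), Tubb2b (-2.60), Tubb2a (-1.64), Tubb3 (-1.38), Actg1 (-2.48), Actr2 (-1.29) and Stmn4 (-1.18 and -1.05 in its 2 rows), and for the chaperone genes Hspa8 (-2.60), Hspa5 (-2.12), Ahsa1 (-1.77), Dnaja1 (-1.25) and Hsp90ab1 (-0.84). The same held for the enzyme genes Ldha (-1.33), Suclg1 (-1.11), Atp5f1a (-1.52), Atp5f1b (-0.92), Acot1 (-1.83) and Gde1 (-2.08). Among peptide and kinase genes it held for Pmch (-1.74), Penk (-1.07), Cpe (-2.70) and Camk2b (-1.24), and among vessel, matrix and glial genes for Cldn5 (-1.52), Col1a2 (-1.63) and Sparcl1 (-1.66). It also held for Eef2 (-1.58), Smarca4 (-1.28), Haus8l2 (-2.35), Tmeff1 (-1.28) and Vdac3 (-1.76). Many of these genes were chosen by their change in LR, and HR age and array run cannot be told apart.

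Single arrays stood apart from the other 4 of their group, on the log2 scale, in 16 of 258 groups of named rows. At P7, array 57 was apart for Smarca4 (2546), Eef2 (2043), Gde1 (1261), Rsph1 (314), Fdft1 (323) and Ndufa8 (729.7), array 56 for C1qa (182) and array 59 for Marcksl1 (165). At P14, array 47 was apart for Pmch (335), Aif1 (269), Tac1 (117) and Fabp5 (3806), array 50 for Stmn4 (137) and the ribosomal protein gene Rpl4 (1346), array 46 for Tmeff1 (46.6) and array 48 for Ahsp (386). Chance flags about 1 in 20 groups at the critical value used.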

How the results depend on the processing

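None of the named rows or counts of calls reversed under the alternatives run, but over all rows called in LR amygdala 21 had the opposite sign in arrays 49 to 60, and the ribosomal protein median of 0.03 was -0.02 with quantile normalization. For the change in LR amygdala (2896 rows, 1082 higher and 1814 lower), fitting the compared groups alone gave 1876 calls (679 and 1197), the array run as a block 1496 (685 and 811), arrays 49 to 60 alone 1027 (432 and 595), and leaving out arrays 47 and 48 gave 2044, with 1112 lower. Fewer samples enter these fits, the block aside, and the fit of the compared groups alone also takes its spread from those groups only. With the block all 30 arrays enter, but its differences equal those in arrays 49 to 60 alone (Mobp 2.16 in both). They rest on P14 arrays 49 and 50, so the block is not a separate check. Leaving out each array in turn gave 2482 to 3052 calls (886 to 1119 higher, 1492 to 1933 lower). The line difference (452 rows, 109 higher and 343 lower) became 187 higher with quantile normalization, 172 higher with centred arrays, 277 (60 and 217) with the compared groups alone, and 685 (203 higher) over rows at or above the median row, where fewer rows are tested. Leaving out each array gave 367 to 546 (80 to 135 higher, 274 to 430 lower). The prefrontal change (223 rows, 109 higher and 114 lower) became 173 lower with quantile normalization and 1416 (640 and 776) with the compared groups alone. Leaving out each array gave 41 to 308 (21 to 142 higher, 20 to 166 lower), with 41 without array 18, 50 without array 20, 56 without array 30, 71 without array 26, 92 without array 27, 94 without array 28 and 135 without array 17. The cause was not tested in the cases whose construction does not show it.

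Of 129 named rows, 28 lost their call with the run as a block, 37 in arrays 49 to 60 alone, 19 with the compared groups alone and 18 without arrays 47 and 48. The line differences of all 6 genes named for them kept their call under each alternative run for the line difference. Arrays 49 to 60 alone and the fit without arrays 47 and 48 were not among those. The 6 genes were also chosen by the smallest p of the same test. With quantile normalization 5 of the 129 named rows lost their call in LR amygdala (Sox5, Vamp1, Kcnj8, Fgf9 and Hspd1). With replicate numbers of the labels as a replicate block, 2813 rows were called (1037 higher and 1776 lower). After each group's row means were taken off, same-numbered LR amygdala P14 and P7 samples correlated between -0.023 and 0.005. These values do not show whether the numbers mark a pairing. Rows near or below the median intensity have no detection call, which limits what can be said of dim genes.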

Other observations

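Further gene families were counted by symbol after their values had been seen. Over all rows 6.18% rose and 10.4% fell, and in arrays 49 to 60 alone 2.47% and 3.4%. Of 18 measured genes of heterogeneous nuclear ribonucleoproteins, which bind and splice nascent RNA, 11 fell and 0 rose (median -0.87), and 9 fell in arrays 49 to 60. Of 25 DEAD-box helicases 10 fell and 0 rose (median -0.66), and 7 fell in that run. Of 51 genes with Eif or Eef symbols 16 fell and 1 rose (median -0.33), against 10 and 1 in that run. They are translation initiation and elongation factors and some of their regulators. Of 40 proteasome genes 14 fell and 3 rose (median -0.23), against 7 and 0. Of 6 genes of the CCT chaperonin, which folds tubulin and actin, 4 fell and 0 rose (median -0.86), and 2 fell in that run. Of 11 histone deacetylases 5 fell and 0 rose, and 3 fell there.

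Rises outnumbered falls among mitochondrial ribosomal proteins, with 25 of 70 higher and 3 lower (median 0.29), beside 6.18% and 10.4% of all rows. In arrays 49 to 60 alone 9 rose and 2 fell, beside 2.47% and 3.4%. Of 24 genes with Coa, Uqcc, Chchd or Cox assembly symbols 11 rose and 4 fell (median 0.55), and within that run 10 rose and 1 fell. Not all of these, above all of the Chchd genes, are assembly factors of respiratory complexes. Of 10 small nuclear ribonucleoprotein genes 4 rose and 1 fell (1 and 1 there), and of 3 metallothioneins 2 rose (1 there). Olfactory receptor genes had 6 of 311 higher and 7 lower (5 and 0 there).

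Rows that fell in LR amygdala were mostly lower in HR than in LR already at P7, in 1641 of 1814 rows (90.5%, median difference -0.56), against 50.9% of all rows. Of the 1082 rows that rose, 227 (20.98%) were lower in HR at P7. At P14 the median differences were -0.11 and -0.04. The same LR P7 arrays chose these rows, which by itself shifts the counts this way, so they are a description only.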
